A study of Homo sapiens with 4 samples.

Results

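The mRNAs of the mitochondrial ribosomal proteins were followed in RNA immunoprecipitation sequencing (RIP-seq) of PHGDH, the dehydrogenase that begins serine synthesis from a glycolytic intermediate. Members were the gene symbols that begin with MRPL (large subunit) or MRPS (small subunit) followed by a number, after pseudogenes, antisense RNAs and divergent transcripts had been left out. There were 78 members among 44715 symbols, 49 of the large and 29 of the small subunit. The cells were HEK293T, a cell line of human embryonic kidney origin with the SV40 large T antigen, and no treatment is named. Lysates were precipitated with an anti-PHGDH antibody (2 libraries, called PHGDH pulldowns) or with an anti-IgG control antibody (2 libraries, called IgG pulldowns). The comparison asks which RNAs are recovered with PHGDH beyond the control. The submitters call the libraries biological replicates of this single line, and nothing in the labels says how separate the cultures were. The p-values therefore speak for these samples only. In the main fit (limma) the SE and p-value of a gene come from a variance trend over all genes, not from the spread of its own replicates.

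The mitochondrial ribosome translates the few mRNAs of the mitochondrial genome, all of which encode subunits of the oxidative phosphorylation complexes. Its ribosomal RNAs are made in mitochondria, whereas all of its proteins are encoded in the nucleus, translated on cytosolic ribosomes and imported. Part of these proteins have counterparts in the bacterial ribosome and the others were acquired by mitochondria. The names are historical, and a few do not match the place of the protein. MRPS18A and MRPS30 lie in the large subunit of the mammalian ribosome, and MRPS36 is today known as KGD4, a subunit of the 2-oxoglutarate dehydrogenase complex.

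The libraries held between 1216477 and 3875746 reads assigned to genes. Values are in CPM, reads of a gene scaled to a common library total, and are not corrected for transcript length. IgG replicate 1 stood apart, since it listed 4148 genes above 0 although it was the deepest library, against 14518 to 16767 genes in the other 3. Of the 9524 genes tested, 61.9% were at 0 in it. Mitochondrially encoded genes took 28.8% of the reads of PHGDH replicate 1 and 3.37 to 8.69% of those of the other 3 libraries. PHGDH mRNA itself measured 6550.2 and 1531 CPM in the PHGDH pulldowns, against 0 and 461 CPM in the IgG pulldowns. Of the 6 HEK293T markers chosen, NEFM, NEFL and VIM were at 50.0 CPM or more in every library, while PAX2, LHX1 and INA did not exceed 6.24 CPM. Of 6 markers of other cells, PTPRC, CD3E and MYH7 were at 0 throughout and ALB had 0.297 CPM in a single library. The collagen mRNAs were detected, COL1A1 at 8.62, 12.3, 0 and 7.60 CPM (PHGDH pulldowns first) and COL3A1 at up to 3.27 CPM.

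No mitochondrial ribosomal protein mRNA was called different between the antibodies in the test across all genes. A gene was tested if it reached 5 CPM in at least 2 libraries, which 75 of the 78 members did (48 large, 27 small). limma on log2(CPM + 1) called 0 of these 75 at an adjusted p under 0.05, where over all genes tested it called 1 gene higher with anti-PHGDH (0.0105%) and 0 lower (0%). At an unadjusted p under 0.05, 4 members were higher and 0 lower, against 261 genes higher (2.74%) and 0 lower over all genes. This balance over all genes moved with the scaling and the tool, giving 43 and 359 with libraries centred on their medians, 196 and 176 after quantile normalization, 21 and 162 in edgeR, and 89 and 149 in DESeq2. edgeR and DESeq2 on the recovered reads also called 0 members, and 0 were higher at an unadjusted p under 0.05 in either tool. The lowest adjusted p of a member was 0.677 in limma. With 2 libraries a group an exact permutation test of a single gene cannot go below 0.333.

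**Figure D1:**
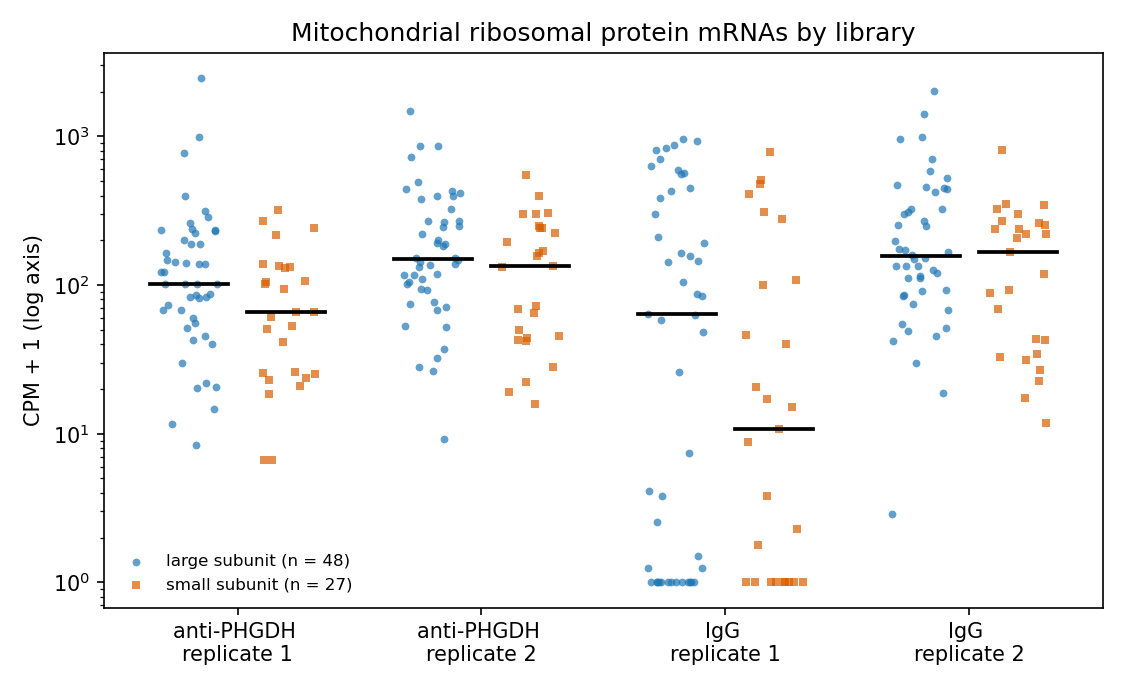
CPM + 1 on a log axis of the 75 members tested in the 4 libraries, with 1 point per mRNA (circles, large subunit; squares, small subunit) and the median of each subunit as a black line. In IgG replicate 1 the members spread from 0 reads, drawn at 1, to 961 CPM, and 22 of them sit at 0.

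The median log2 fold change of the members was 0.45, and the median over all genes tested was 1.92. Fewer members than genes at large were at 0 in IgG replicate 1 (29.3% against 61.9%). Among features with the same range of reads in that library the order was the other way round. The medians were 2.98 for members and 2.35 for all genes at 0 reads (22 members). At 1 to 3 reads (only 4 members) they were 2.54 and 2.22, and at over 3 reads (49 members) -0.17 and -0.35. That library is itself part of the fold change, so at 0 reads the value grows with a level shared by the other libraries. Members had the higher level there, with a median of 75.7 against 13.3 CPM in IgG replicate 2 at 0 reads. The part of this level in the medians was not tested. Over all reads classes the median was 0.30 for the large subunit (quartiles -0.84 and 2.58) and 0.70 for the small subunit (quartiles -0.09 and 2.49). The fold change was above 0 in 47 of 75 members (62.7%), where 80.7% of all genes tested lay above 0. Without IgG replicate 1 the median of all genes was 0.14, and the members lay 0.64 below it, at -0.70 for the large and -0.47 for the small subunit relative to all genes. After quantile normalization, which gives every library the same distribution, the distance from the median of all genes was 0.08 for all members, 0.23 for the large and -0.15 for the small subunit.

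The large subunit lay 0.41 below the small subunit on the log2 scale. The gap between the subunit medians of log2(CPM + 1) in each library had an SD of 1.35 between replicates, larger than this difference. Median CPM of the large and small subunit were 62.4 and 9.81 in IgG replicate 1, and 155 and 167 in IgG replicate 2. They were 101 and 64.8 in PHGDH replicate 1, and 149 and 133 in PHGDH replicate 2. After quantile normalization the large subunit lay 0.38 above the small one. Moving MRPS18A and MRPS30 to the large subunit and leaving out MRPS36 brought the difference to -0.04. The proteins with a bacterial counterpart and those acquired by mitochondria had median log2 fold changes of 0.29 and 0.37 in the large subunit, and of 0.77 and 0.70 in the small subunit.

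Summed over members, the large subunit took a larger share of reads in IgG replicate 2 than in either PHGDH pulldown. In the PHGDH pulldowns its share came to 0.974% (95% Wilson interval 0.963 to 0.984%) and 1.18% (1.16 to 1.20%). In the IgG pulldowns it came to 1.06% (1.05 to 1.07%) and 1.44% (1.42 to 1.46%). IgG replicate 1 lay between the PHGDH pulldowns, so the groups overlapped.

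The small subunit gave 0.247% and 0.425% of the reads in PHGDH replicates 1 and 2, and 0.313% and 0.482% in IgG replicates 1 and 2. Both libraries numbered 1 were below both numbered 2. With the mitochondrially encoded genes left out of the total, the large subunit took 1.37% and 1.30% of the reads with anti-PHGDH and 1.10% and 1.49% with IgG. IgG replicate 2 remained the highest and IgG replicate 1 became the lowest. The large subunit mRNAs held 3.94 and 2.79 times the reads of the small subunit mRNAs in the PHGDH pulldowns, and 3.38 and 2.99 times in the IgG libraries, so that this ratio did not separate the antibodies either. These intervals cover counting error only, since amplified reads are not independent molecules.

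**Figure D2:**
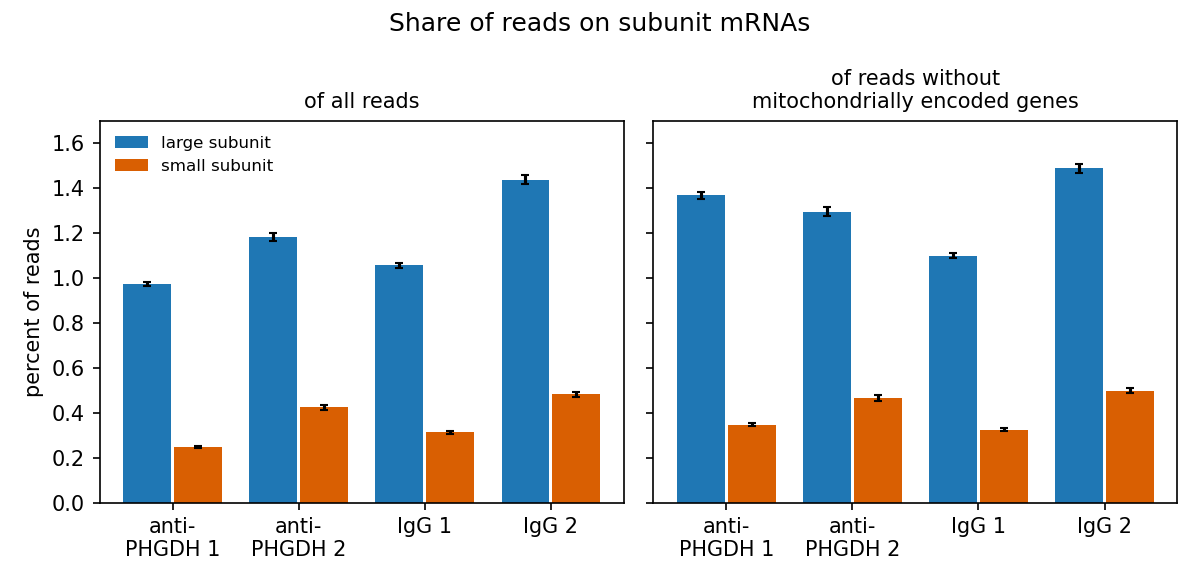
Bars give the percent of reads on large (blue) and small (orange) subunit mRNAs in each library, of all reads on the left and of the reads without mitochondrially encoded genes on the right. Error bars are 95% Wilson intervals. In both panels the highest bar of either subunit is that of IgG replicate 2, at 1.44% and 0.482% of all reads.

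Within the libraries numbered 2, which detect a similar number of genes, most members were slightly lower with anti-PHGDH. Of the 75 members, 46 (61.3%) were lower in PHGDH replicate 2 than in IgG replicate 2, where 36.9% of all genes tested were. The median log2 ratio was -0.18 for the large and -0.10 for the small subunit, and 0.18 for all genes tested. The members lay 0.17 to 0.34 below all genes in this pair under all 9 other pseudocounts, filters and scalings. They were also below all genes within each class of reads in IgG replicate 1. The medians were 0.059 and 0.26 at 0 reads, 0.077 and 0.18 at 1 to 3 reads (only 4 members), and -0.22 and 0.04 at over 3 reads. There is 1 library on each side, so this difference has no replicate check. Both PHGDH pulldowns were below IgG replicate 2 for 43 members (57.3%, against 25.1% of all genes), and both were above it for 11 (14.7%, against 43.9%). IgG replicate 2 was the highest of the 4 libraries for 31 members (41.3%, against 19.5%). The 3 most abundant such mRNAs were MRPL55, MRPL51 and MRPL14. MRPL55 measured 767 and 1470.6 CPM in the PHGDH pulldowns, against 298 and 2019.7 CPM in the IgG pulldowns. MRPL51 measured 312 and 861 CPM, against 566 and 1413 CPM, and MRPL14 measured 285 and 728 CPM, against 142 and 994 CPM. All 3 encode large subunit proteins.

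**Figure D3:**
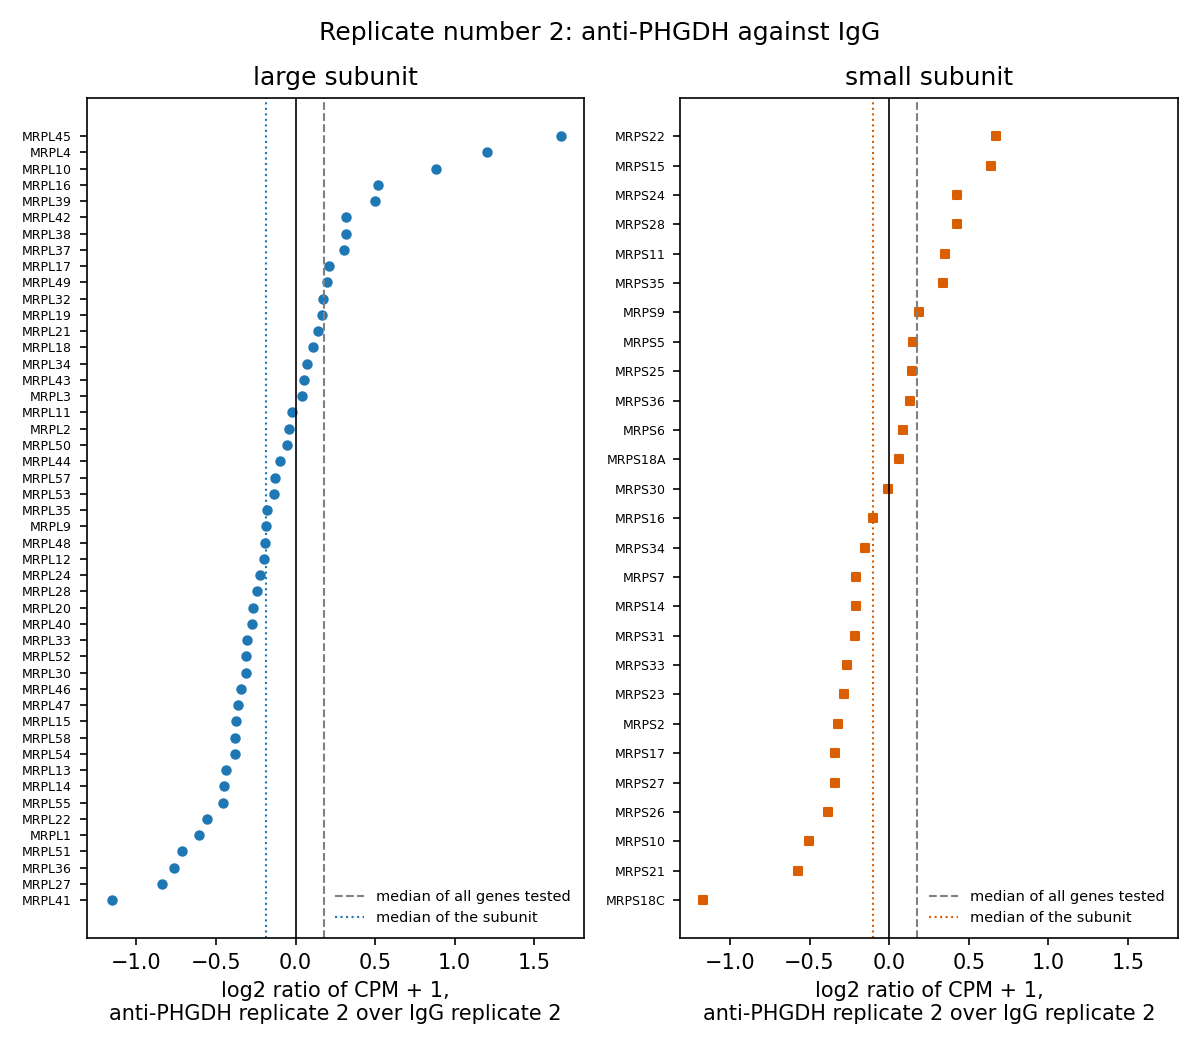
Log2 ratio of CPM + 1 between PHGDH replicate 2 and IgG replicate 2 for each member tested, sorted within the large (left) and the small subunit (right). The dashed line is the median of all genes tested (0.18) and the dotted lines are the subunit medians (-0.18 and -0.10). MRPL45, MRPL4 and MRPL10 lie farthest to the right, and MRPL41 and MRPS18C farthest to the left.

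At least 1.5-fold higher with anti-PHGDH in this pair were 5 members (6.67%, against 25.5% of all genes), namely MRPL45, MRPL4, MRPL10, MRPS22 and MRPS15. At least 1.5-fold lower were 6 members (8%, against 7.29%), among them MRPL41, MRPL27, MRPL36, MRPL51 and MRPS18C.

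Among large subunit mRNAs, MRPL4 had the highest fold change. Its protein has a bacterial counterpart and reaches into the tunnel through which the new polypeptide leaves the ribosome. The mRNA measured 981 and 266 CPM in the PHGDH pulldowns, replicate 1 first as everywhere (mean 623 ± 506 CPM, SD, n = 2). The IgG pulldowns gave 0 and 115 CPM (mean 57.3 ± 81.0 CPM, SD, n = 2). Both PHGDH pulldowns were above both IgG libraries, and the lower of them was 2.31 times the higher IgG library on CPM + 1. The log2 fold change reached 5.57 with an SE of 1.82 (limma adjusted p = 0.677), and in the pair numbered 2 the ratio of CPM was 2.32 (95% exact interval 1.93 to 2.80, counting error only). Leaving out IgG replicate 1 gave 2.15 and leaving out IgG replicate 2 gave 9.00.

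MRPL10, which anchors the flexible stalk of the large subunit, measured 230.3 and 92.9 CPM in the PHGDH pulldowns, against 0 and 50.0 CPM in the IgG pulldowns. Its groups did not overlap, and its log2 fold change reached 4.37 with an SE of 2.18 (limma adjusted p = 0.677). It was 1.53 without IgG replicate 1 and 7.20 without IgG replicate 2. MRPL45 lies near the exit of the tunnel and helps to hold the ribosome at the inner membrane. Its mRNA rested on 25, 10, 0 and 3 reads (7.43 and 8.22 CPM in the PHGDH pulldowns, 0 and 1.90 CPM in the IgG pulldowns). The 2 anti-PHGDH values were close to each other and above both IgG values. The ratio in the pair numbered 2 was 4.33, with an exact interval of 1.11 to 24.5 that shows how few reads carry it. MRPL45P2, a pseudogene of MRPL45, was at 3.86, 6.58, 0 and 7.60 CPM in the same order, and reads of near-identical copies may have been assigned to either.

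No member other than MRPL4 and MRPL45 was 2-fold or more above both IgG pulldowns in both PHGDH pulldowns (2 of 75, 2.67%, against 9.3% of all genes tested). The groups did not overlap in the higher direction for 9 members (12%, against 38.3%). Beside MRPL4, MRPL45 and MRPL10 these were MRPL37, MRPL49, MRPL43, MRPL34, MRPS11 and MRPS18A. Where IgG replicate 1 was at 0 (29.3% of members, 61.9% of all genes tested), in effect only IgG replicate 2 had to be exceeded.

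MRPL37, acquired by mitochondria, gave more reads in PHGDH replicate 1 than any other member, 20.1% of all member reads. It measured 2459 and 866 CPM in the PHGDH pulldowns, against 143 and 702 CPM in the IgG pulldowns. In the pair numbered 2 the ratio was only 1.23 (exact interval 1.13 to 1.34), and the log2 fold change reached 2.20 with an SE of 1.26 (limma adjusted p = 0.677). It was 1.06 without IgG replicate 1, 3.34 without IgG replicate 2 and 1.45 without PHGDH replicate 1. MRPL49, also acquired by mitochondria, was at 234 and 51.0 CPM in the PHGDH pulldowns and at 0.258 CPM (1 read) and 44.3 CPM in the IgG pulldowns. PHGDH replicate 1 was far above the other libraries and IgG replicate 1 far below them, with a log2 fold change of 3.87 (SE 2.24; limma adjusted p = 0.677). It was 1.29 or 6.46 when IgG replicate 1 or 2 was left out. MRPL2, which lies close to the peptidyl transferase centre, measured 235 and 246 CPM in the PHGDH pulldowns, against 0.258 and 253 CPM in the IgG pulldowns. Its log2 fold change reached 3.75 with an SE of 1.86 (limma adjusted p = 0.677), and without IgG replicate 1 or 2 it was -0.075 or 7.58.

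The 2 PHGDH pulldowns differed from each other for these same mRNAs. Most members were lower in PHGDH replicate 1 than in replicate 2: 62 of 75 (82.7%, against 51.3% of all genes tested), with a median log2 difference of -0.85 (-0.03 over all genes tested). At least 2-fold lower were 31 members (41.3%, against 14.4%). At least 2-fold higher in replicate 1 were 5 members (6.67%, against 13.5%), and all 5 encode large subunit proteins. They were MRPL49 (4.59 times as high in CPM), MRPL4 (3.70 times), MRPL38 (2.89 times), MRPL37 (2.84 times) and MRPL10 (2.48 times). At the other end, MRPL41 was at 44.6 CPM in replicate 1 and at 431 CPM in replicate 2, and MRPL33 at 19.3 and 109 CPM. Mitochondrially encoded genes took 28.8% of reads in replicate 1 and 8.69% in replicate 2, and their part in these differences was not tested.

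**Figure D4:**
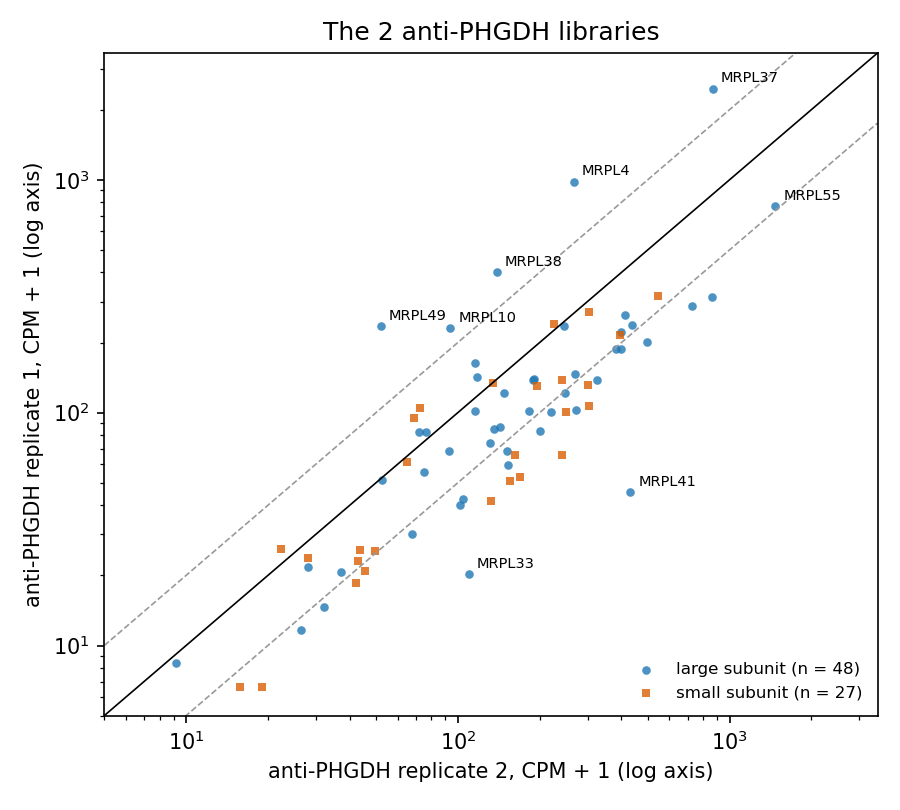
CPM + 1 of each member tested in PHGDH replicate 2 (horizontal) and replicate 1 (vertical), both on log axes, with circles for large and squares for small subunit mRNAs. The solid line marks equal values and the dashed lines a 2-fold difference. Most points lie below the solid line, and MRPL37, MRPL4, MRPL38, MRPL49 and MRPL10 lie above the upper dashed line.

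The lowest fold changes of the large subunit belonged to mRNAs that were abundant in IgG replicate 1. MRPL46, a protein of the central protuberance, measured 84.1 and 135 CPM in the PHGDH pulldowns, against 961 and 171 CPM in the IgG pulldowns. Both IgG libraries were above both PHGDH pulldowns, IgG replicate 2 only by 1.27 times on CPM + 1. MRPL22, a protein of the exit tunnel, measured 99.8 and 219 CPM in the PHGDH pulldowns, against 933 and 322 CPM in the IgG pulldowns. MRPL27, whose bacterial counterpart reaches towards the peptidyl transferase centre, measured 138 and 323 CPM in the PHGDH pulldowns, against 836 and 579 CPM in the IgG pulldowns, again without overlap. MRPL47, whose bacterial counterpart lies at the tunnel exit, measured 41.6 and 104 CPM in the PHGDH pulldowns, against 445 and 134 CPM in the IgG pulldowns. The log2 fold changes of these 4 mRNAs lay between -1.92 (MRPL46) and -1.72 (MRPL27), with a limma adjusted p of 0.677 for each. Without IgG replicate 1 they were -0.68 (MRPL46), -1.12 (MRPL22), -1.01 (MRPL47) and -1.45 (MRPL27). Without PHGDH replicate 1 those of MRPL47 and MRPL27 were -1.23 and -1.11, and without IgG replicate 2 that of MRPL46 was -3.16.

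The mRNA of MRPL41 had the lowest ratio of the large subunit in the pair numbered 2, 0.449 (exact interval 0.406 to 0.496), at 431 CPM against 959 CPM. It was at 63.0 CPM in IgG replicate 1, so that the groups overlapped. Its log2 fold change came to -0.82 with an SE of 1.53 (limma adjusted p = 0.718). The direction turned without PHGDH replicate 1 (0.80) and without IgG replicate 2 (1.13).

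The 3 paralogs of MRPS18 descend from 1 bacterial protein and occupy different places in the mitochondrial ribosome, MRPS18A in the large subunit. Their values differed widely. MRPS18C measured 49.9 and 155 CPM in the PHGDH pulldowns, against 408 and 349 CPM in the IgG pulldowns (means 102 ± 74.0 and 379 ± 41.9 CPM, SD, n = 2 each). Both IgG libraries were more than 2-fold above both PHGDH pulldowns, the nearest pair by 2.25 times. This held for 1 of 75 members (1.33%) and for 8 of all genes tested (0.084%). Genes at 0 in IgG replicate 1, 29.3% of members and 61.9% of all genes tested, cannot meet this rule. The log2 fold change came to -2.09 with an SE of 1.53 (limma adjusted p = 0.677), and the ratio in the pair numbered 2 was 0.443 (exact interval 0.373 to 0.524). Without PHGDH replicate 1 the log2 fold change was -1.28. After quantile normalization 0 members met this rule, and the share of all genes was not counted there.

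MRPS18A went the other way, with 103 and 71.5 CPM in the PHGDH pulldowns against 0 and 68.4 CPM in the IgG pulldowns. Both PHGDH pulldowns lay above IgG replicate 2, the nearer of them by only 1.05 times on CPM + 1, and the log2 fold change reached 3.38 with an SE of 2.28 (limma adjusted p = 0.677). It was 0.33 or 6.44 when IgG replicate 1 or 2 was left out. MRPS18B was nearly without reads, with 6 reads in PHGDH replicate 1 (1.78 CPM) and 0 in the other 3 libraries, and was not tested. The other members that were not tested were MRPL23 and MRPS12, each with 1 read in IgG replicate 2 and 0 elsewhere. MRPS12 is the protein of the decoding centre. By counting alone, 0 reads allows 3 reads, that is 0.891 and 2.47 CPM for the PHGDH pulldowns and 0.774 and 1.90 CPM for the IgG pulldowns. The annotation and the handling of reads with several matches are not given in the sources used here, so these 3 values near 0 may not be the level of the mRNA.

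The highest fold changes of the small subunit all came with 0 reads in IgG replicate 1. MRPS11, a protein of the platform, measured 270.1 and 303 CPM in the PHGDH pulldowns, against 0 and 238 CPM in the IgG pulldowns (log2 fold change 4.22, SE 1.86; limma adjusted p = 0.677). It was 1.13 times as high in the lower PHGDH pulldown as in IgG replicate 2, on CPM + 1. Its log2 fold change was 0.26 without IgG replicate 1 and 8.17 without IgG replicate 2. MRPS25 measured 137 and 241 CPM in the PHGDH pulldowns, against 0 and 218 CPM in the IgG pulldowns, and MRPS2 at 133 and 133 CPM against 0 and 167 CPM. For both mRNAs IgG replicate 2 lay among or above the anti-PHGDH values. Without IgG replicate 1 the log2 fold changes of MRPS25 and MRPS2 were -0.26 and -0.32.

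MRPS15, whose bacterial counterpart binds the ribosomal RNA early in assembly, measured 215 and 394 CPM in the PHGDH pulldowns, against 7.74 and 253 CPM in the IgG pulldowns, with a ratio of 1.56 in the pair numbered 2 (exact interval 1.36 to 1.78). MRPS22 had a similar ratio of 1.62 (1.05 to 2.50) but on fewer reads, with 22.0 and 41.9 CPM in the PHGDH pulldowns against 45.2 and 26.0 CPM in the IgG pulldowns. Its highest library was therefore an IgG library, and its log2 fold change was -0.17, which turned to 0.22 without IgG replicate 1 and to 0.28 without PHGDH replicate 1. MRPS21 measured 316 and 546 CPM in the PHGDH pulldowns, against 787 and 812 CPM in the IgG pulldowns, without overlap. MRPS33 and MRPS34, at 99.8 and 249 CPM and at 64.8 and 242 CPM in the PHGDH pulldowns, were also below both their IgG values of 475 and 299 CPM and of 275 and 269 CPM. MRPS7, which starts the assembly of the head of the small subunit, measured 240.4 and 224 CPM in the PHGDH pulldowns, against 511 and 260 CPM in the IgG pulldowns.

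Of all members tested, 15 did not overlap in the lower direction (20%, against 6.16% of all genes tested), 9 of the large and 6 of the small subunit. The lower IgG pulldown exceeded the higher PHGDH pulldown by less than 2-fold in all but MRPS18C. A gene at 0 in IgG replicate 1 cannot be lower without overlap, which leaves out 29.3% of members and 61.9% of all genes tested. The 2 shares are therefore not on an equal footing. MRPS30 (25.0 and 21.4 CPM in the PHGDH pulldowns, 0 and 21.5 CPM in the IgG pulldowns) and MRPS36 (5.65 and 18.1 CPM in the PHGDH pulldowns, 0 and 16.5 CPM in the IgG pulldowns), which are not proteins of the small subunit, were both at 0 in IgG replicate 1. MRPS30 was close between the other libraries, whereas MRPS36 was lower in PHGDH replicate 1.

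IgG replicate 1 divided the members sharply. In it 22 of 75 members were at 0 (29.3%, against 61.9% of all genes tested), and 4 further members had 1 to 3 reads. By contrast 18 members were higher there than in any other library (24%, against 16.3%), 13 of the large and 5 of the small subunit. At least 2-fold above each other library were 9 members (12%, against 12.3%), all of the large subunit. MRPL3, which lies near the peptidyl transferase centre, was at 868 CPM there and at 81.7, 75.6 and 73.4 CPM in PHGDH replicates 1 and 2 and IgG replicate 2. All 22 members at 0 had a log2 fold change above 0, from 1.43 to 5.57, as did 5890 of the 5895 genes at 0, a sign that a library at 0 in the control nearly fixes. Of the 49 members with over 3 reads, 21 were above and 28 below 0, against 1326 above and 1828 below among all genes of that class. The members had more reads than the typical gene tested (a median of 158 against 19.0 CPM in IgG replicate 2, not corrected for length), and the part of this level in their detection was not tested.

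**Figure D5:**
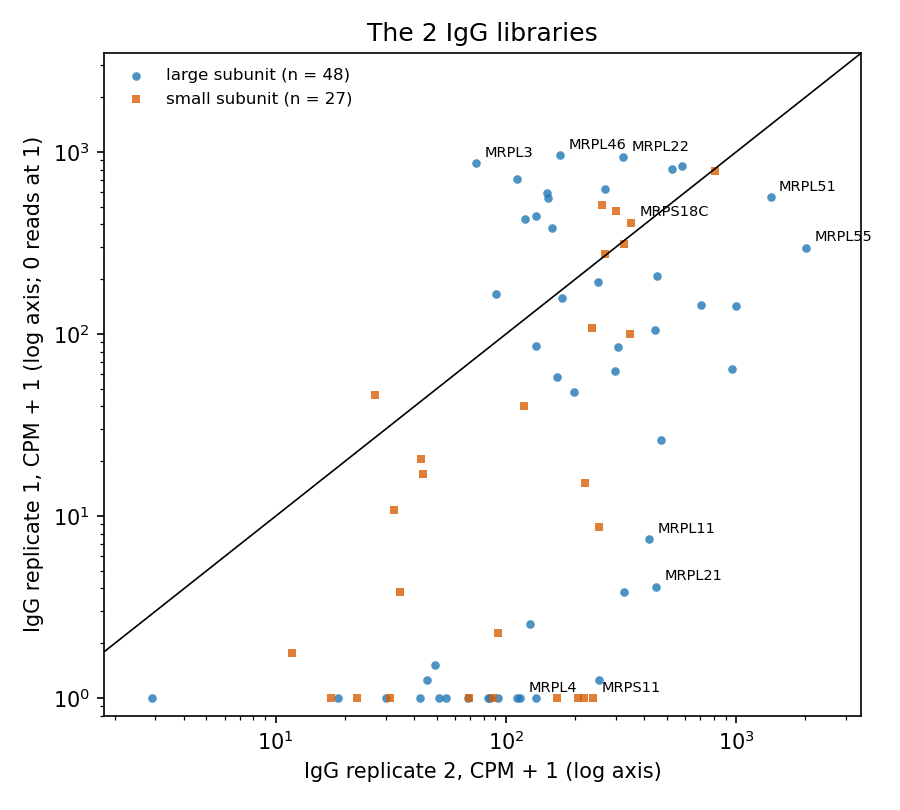
CPM + 1 of each member tested in IgG replicate 2 (horizontal) and IgG replicate 1 (vertical), both on log axes, with circles for large and squares for small subunit mRNAs and the line of equal values. Members at 0 reads in IgG replicate 1 lie along the bottom at 1, MRPS11 and MRPL4 among them, while MRPL3, MRPL46 and MRPL22 lie above the line.

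Across the 75 members the libraries numbered 2 had Pearson's r = 0.97 and Spearman's rho = 0.96 on log2(CPM + 1). The PHGDH replicates correlated with r = 0.83 (rho = 0.78) while r was 0.57 (rho = 0.57) between the IgG replicates. These values describe the libraries, since the points are mRNAs that share a library and not replicates. Over all genes tested the order was the same, with r = 0.93 for the libraries numbered 2, 0.85 for the PHGDH replicates and 0.51 for the IgG replicates.

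A pair of neighbouring genes shows how far apart the values of IgG replicate 1 can be. MRPL46 and MRPS11 lie head to head on chromosome 15, with RefSeq starts 320 bases apart on opposite strands (GRCh38.p14), and no other members among the 69 with a promoter entry lie head to head within 1000 bases. MRPL46 had 3726 reads in IgG replicate 1 and MRPS11 had 0, although in IgG replicate 2 they had 270 and 376 reads. They carried the lowest fold change of the large subunit and the highest of the small subunit. The 120 bases before each start are shown for this pair, and for the mRNAs that were 2-fold apart in opposite directions, MRPL4 and MRPS18C. MRPS18A is added because it holds the motif most frequent among the members, in capitals.
MRPL46, chr15:88467389-88467508, minus strand: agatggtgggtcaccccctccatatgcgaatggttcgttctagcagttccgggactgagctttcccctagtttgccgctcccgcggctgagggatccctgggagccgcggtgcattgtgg
MRPS11, chr15:88467588-88467707, plus strand: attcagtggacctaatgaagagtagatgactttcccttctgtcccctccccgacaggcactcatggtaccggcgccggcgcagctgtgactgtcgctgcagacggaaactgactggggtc
MRPL4, chr19:10251831-10251950, plus strand: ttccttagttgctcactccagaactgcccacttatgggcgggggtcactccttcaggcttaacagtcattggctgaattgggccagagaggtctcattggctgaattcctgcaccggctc
MRPS18C, chr4:83455938-83456057, plus strand: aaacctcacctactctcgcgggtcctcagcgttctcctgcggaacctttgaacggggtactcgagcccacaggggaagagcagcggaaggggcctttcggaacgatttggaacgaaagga
MRPS18A, chr6:43687792-43687911, minus strand: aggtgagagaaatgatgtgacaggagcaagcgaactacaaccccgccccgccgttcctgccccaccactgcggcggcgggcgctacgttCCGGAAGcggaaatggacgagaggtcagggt

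The capitals in MRPS18A mark CCGGAAG, the core bound by ETS factors such as GABPA. In the 250 bases before the start, on either strand, 23 of 69 members held CCGGAAG (33.3%), against 18.0% of the protein-coding genes tested and 8.81% of all 27305 promoters. The share was 33.3% in both subunits (14 of 42 and 9 of 27). AAGATGGC, a core of the YY1 motif, was found in 5 members (7.25%, against 1.98% and 1.37%). Neither motif contains the other on either strand. The NRF1 motif was also scanned and was found in 1 member (1.45%, against 2.26% and 1.13%). The TATA motif was found in 2 members (2.90%, against 4.34% and 11.1%). For NRF1 and TATA the share of members was thus below that of the protein-coding genes tested. A C at the start followed by 4 pyrimidines was found in 5 members (7.25%, against 5.90% and 4.04%). These matches describe the sequences, and no relation to the recovery of the mRNAs was tested. Of the 77 members with RefSeq coordinates, 18 overlap the span of another protein-coding gene. Among them are MRPL37, MRPL49, MRPL43, MRPL34 and MRPS18A, which were higher without overlap of the groups, and MRPL2. MRPS18C, MRPL47, MRPS34, MRPL36 and MRPS7, which were lower without overlap of the groups, are also among them. The share of all genes with such an overlapping span was not counted. Exons were not compared. The use of strand in counting is not given in the sources used here, so reads of overlapping genes cannot be told apart.

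Other genes of mitochondrial translation were tested in the same fit. None of the 5 mitochondrial ribosomal proteins with other names, of the 11 translation factors or of the 26 assembly and RNA-handling factors tested was called higher or lower in limma (at an unadjusted p under 0.05, 1, 0 and 1 of them were higher and 0 lower). Their median log2 fold changes were 0.73, 1.59 and 1.47, against 1.92 over all genes tested. In these lists 20%, 63.6% and 34.6% of the genes were at 0 in IgG replicate 1, against 61.9% of all genes tested. The medians are therefore not on an equal footing. AURKAIP1, a protein of the small subunit, measured 288 and 329 CPM in the PHGDH pulldowns, against 0 and 336 CPM in the IgG pulldowns (log2 fold change 4.07). PTCD3, the small subunit protein at the entry of the mRNA, measured 41.9 and 28.0 CPM in the PHGDH pulldowns, against 947 and 45.0 CPM in the IgG pulldowns (-2.57). MRRF, the recycling factor, measured 52.3 and 38.6 CPM in the PHGDH pulldowns, against 0 and 41.8 CPM in the IgG pulldowns (2.81). MTIF3, an initiation factor, measured 26.4 and 45.2 CPM in the PHGDH pulldowns, against 43.9 and 47.5 CPM in the IgG pulldowns (-0.39, and -0.013 without PHGDH replicate 1). ERAL1, a chaperone of the small ribosomal RNA, measured 331 and 122 CPM in the PHGDH pulldowns, against 0 and 75.3 CPM in the IgG pulldowns (4.53), without overlap. MTERF4, which assists assembly of the large subunit, measured 16.9 and 21.4 CPM in the PHGDH pulldowns, against 268 and 29.8 CPM in the IgG pulldowns (-2.18). The limma adjusted p was between 0.677 and 0.901 for these 6 genes. With IgG replicate 1 left out, the values were -0.13 (AURKAIP1), -0.38 (PTCD3), 0.10 (MRRF), 1.40 (ERAL1) and -0.62 (MTERF4).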

How the data were processed

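RIP-seq libraries of HEK293T cells (2 anti-PHGDH, 2 IgG, grouped by title) were used. The authors deposited 1 table of CPM values per library, printed to 3 decimals. Per the submitters' processing notes, STAR 2.5.4b, featureCounts and hg38 were used; annotation, strand and duplicate handling are not given in the sources used here. CPM values were whole multiples of 1 read, which gave 3365837, 1216477, 3875746 and 1579430 reads (anti-PHGDH 1 and 2, IgG 1 and 2). All but 7 values above 0, none of them a member's, were whole to within 0.000639 to 0.00203 reads, depending on the library (shares of whole values 99.99, 99.99, 100 and 99.98%).

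Genes reaching 5 CPM in 2 or more libraries (9524) were fitted as log2(CPM + 1) by group with limma 3.58.1 in R 4.3.3, with the variance trended on mean level; p-values are two-sided and were adjusted by Benjamini-Hochberg. Because limma estimated infinite prior degrees of freedom, each SE follows that trend rather than the spread of the gene. A zero in a library makes the fold change depend on the pseudocount. edgeR 4.0.16 and DESeq2 1.42.0 on recovered reads were alternatives, and edgeR called 0 genes (with unadjusted p under 0.05 it found 21 higher, 162 lower).

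The members and lists were chosen with earlier results of these data known. Named members were, per subunit, the 4 highest and 4 lowest fold changes, the 2 highest and 2 lowest ratios within number 2, the 2 highest CPM values in IgG replicate 1, those 2-fold apart in every pair, those not tested, and MRPS18A to C, MRPS30 and MRPS36. MRPL37, MRPL38, MRPL43, MRPL34, MRPL36, MRPL33, MRPL51, MRPL55, MRPL14, MRPL3 and MRPS27 were named after their values were seen. For each pathway list the highest and the lowest fold change were named. RefSeq (GRCh38.p14) gave names, positions and promoters; 77 of 78 members matched by symbol and MRPS36 as a synonym of KGD4.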

Additional observations from a re-analysis of the deposited data

How the results depend on the processing

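The number of members called was 0 in both directions in every fit but the one without IgG replicate 2, where IgG replicate 1 alone stands for the control and is assumed to vary like the other group; the ranges over left-out libraries were 0 to 36 members higher and 0 to 8 lower. For all genes these ranges were 0 to 7129 higher and 0 to 1032 lower. Genes called higher (1) became 11 when the pseudocount was 0.1, 3 when the filter was 1 CPM, 6 when all genes were kept, 3 with a robust trend, 4 with the replicate block, and 0 after centring on medians, without the trend, in edgeR (with or without the replicate block) and in DESeq2. The replicate block changed no call of a member (lowest limma adjusted p 0.807). Deviations of same-numbered libraries correlated with r = 0.0058 over all genes tested and with r = -0.22 over the members. IgG replicate 1 was at 0 for 61.9% of the genes tested, so this r cannot settle whether the numbers mark pairs. No pairing was assumed in the main fit. In the main setting 9.3% of all genes tested were 2-fold higher in every pair and 0.084% were 2-fold lower. This share over all genes was not counted in the other settings. The member counts that follow therefore cannot be told apart from a shift of whole libraries. Members 2-fold higher in every pair (2) were 1 when the pseudocount was 5, 1 when the filter was 20 CPM, 0 when centred, 0 when 4-fold was asked, and 2 to 38 without 1 library. Members 2-fold lower (1) were 5 when centred, 2 under TMM, 0 under quantile normalization, 2 when 1.5-fold was asked, 0 when 4-fold was asked, and 1 to 13 without 1 library. Centring moved the subunit medians to -2.20 (large) and -1.79 (small). Leaving out 1 library moved the large subunit to between -0.56 and 1.54, the small subunit to between -0.33 and 2.53, and their difference to between -0.99 and -0.22. The median of all genes moved as well, from 1.92 to -0.57 when centred and to between 0.14 and 3.60 without 1 library. Relative to that median the subunits lay at -1.63 (large) and -1.22 (small) both in the main fit and when centred. Without mitochondrially encoded genes the shares of reads were 1.37, 1.30, 1.10 and 1.49% (large) and 0.348, 0.465, 0.325 and 0.498% (small) in the order anti-PHGDH 1 and 2, IgG 1 and 2. Signs of single genes turned in 33 of 758 alternative fits of 40 named genes. After centring these were MRPL45 (-0.13), MRPS30 (-0.15), MRPS36 (-1.07), MRPL37 (-0.30), MRPL55 (-2.04) and MRPL14 (-2.22); after quantile normalization MRPS36 (-0.50), MRPL38 (0.39) and MRPL51 (0.027); without mitochondrially encoded genes MRPS22 (0.081) and MRPL38 (0.0016). MRPL55 and MRPL14 were at -0.25 and -0.36 in edgeR and at -0.028 and -0.17 in DESeq2. Without 1 library the ranges were -0.075 to 7.58 (MRPL2), -2.78 to 1.13 (MRPL41), -0.26 to 7.51 (MRPS25), -0.32 to 7.06 (MRPS2), -0.62 to 0.28 (MRPS22), -0.63 to 3.49 (MRPS36), -0.13 to 8.27 (AURKAIP1), -1.59 to 1.08 (MRPL38), -2.41 to 0.019 (MRPL33), -0.93 to 1.83 (MRPL55), -1.12 to 1.67 (MRPL14), -3.45 to 0.10 (MRPL3) and -0.12 to 6.34 (MRPS27). Ranges that kept their sign included 2.15 to 9.00 (MRPL4), 1.53 to 7.20 (MRPL10), 1.29 to 6.46 (MRPL49), 0.26 to 8.17 (MRPS11), 0.33 to 6.44 (MRPS18A), 0.10 to 5.52 (MRRF), 1.40 to 7.66 (ERAL1), -4.75 to -0.38 (PTCD3) and -3.75 to -0.62 (MTERF4). The cause was not tested. Centring subtracts 1 constant per library.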

Other observations

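The symbols left out of the members carried few reads. Of 48 such symbols (41 pseudogenes, 4 antisense RNAs and 3 divergent transcripts), 13 were above 0 in any library and 2 passed the filter. The highest was MRPL20-AS1, with 15.4 and 14.8 CPM in the PHGDH pulldowns against 0 and 10.1 CPM in the IgG pulldowns. The ribosomal RNAs of the mitochondrial ribosome were close to absent from the tables. RNR1, the small ribosomal RNA, was listed at 0 in all 4 libraries, and RNR2, the large one, with 0.594 and 1.64 CPM in the PHGDH pulldowns against 0.516 and 3.80 CPM in the IgG pulldowns, while mitochondrially encoded genes together took 3.37 to 28.8% of reads.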
